A study of Homo sapiens with 8 samples.

Results

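The genes described here are 10 human apolipoproteins, APOB, APOA1, APOA2, APOA4, APOA5, APOC1, APOC3, APOE, APOM and APOH, among 18132 genes named on an Affymetrix expression array. They were taken as every probe set whose only gene symbol in the platform annotation was 1 of these 10 names, which gave 25 probe sets, and 0 probe sets shared a symbol with another gene. The arrays held total RNA of the human liver cancer lines Hep3B and Huh7.5.1, both from hepatocellular carcinoma, the latter a subline of Huh7 selected for growth of hepatitis C virus. Cultures were given 10 μM CU27, an agent known here only by its code name, or the solvent DMSO for 48 h. The groups used were Hep3B with DMSO (replicates 2 and 3), Huh7.5.1 with DMSO (replicates 1 and 2) and Huh7.5.1 with CU27 (replicates 1 and 2), 2 arrays each. All 3 groups were grown with fetal bovine serum in DMEM or MEM, and the labels do not say which line had which medium. The labels call the replicates biological but do not describe them further, and each line is 1 established line, so the p-values measure the spread between these cultures. The columns for Hep3B with CU27 were not used, because at all 49395 probe sets they equalled linear functions of the Hep3B DMSO columns to within 2e-06.

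Apolipoproteins are the protein coats of the particles that carry lipid through blood. APOB is built into very-low-density lipoprotein while it is being made in the hepatocyte and stays with the particle, whereas APOA1 and APOA2 form high-density lipoprotein and the small C proteins and APOE move between particles. The liver makes most of them, and hepatoma lines are a common model of their synthesis and secretion.

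Signals are given in log2 units, as deposited, so that a difference of 1 is a doubling, and each gene is represented by its probe set of highest mean signal unless several are described. Signals of different probe sets cannot be set against each other, and no gene is ranked by level here. A gene was tested where at least 1 group mean reached 6.11, the median of all signals that were not array controls, and 11383 genes did so. The array medians were 5.82 to 5.85 in Hep3B, 6.23 to 6.27 in Huh7.5.1 with DMSO and 6.25 to 6.26 with CU27. Replicates correlated at 0.991 to 0.994 across genes, which are not independent replicates. The ACTB control signal at the 3′ end exceeded that at the 5′ end, which tracks how complete the labelled RNA is, by 1.60 to 2.28 in Hep3B and 0.94 to 1.21 in Huh7.5.1. Of 10 hepatocyte markers, 9 to 10 were above the floor on each array. The leukocyte and macrophage list had 3 to 4 of 7 above it, the enterocyte list 1 to 3 of 6 and the fibroblast list 1 to 2 of 6.

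Of the 10 apolipoproteins, 8 reached the floor, and all 8 were above it on every array. APOA4 and APOA5 stayed below it in every group mean and were not tested. With CU27 in Huh7.5.1, 4 of the 8 tested fell and 0 rose (limma with Benjamini-Hochberg adjustment, threshold 0.05). Of all genes tested, 12.1% fell and 12.6% rose. The 4 that fell were APOB, the scaffold of very-low-density lipoprotein, APOM, a carrier of sphingosine-1-phosphate, APOH, a phospholipid-binding plasma glycoprotein, and APOA2. The median difference of the 8 was -0.36, against 0.02 over all genes tested. Both CU27 arrays lay below both DMSO arrays for 7 of the 8, the exception being APOC3, and 31% of all genes tested showed the same separation; 0 were separated upward, against 32.9% of all genes.

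**Figure D1:**
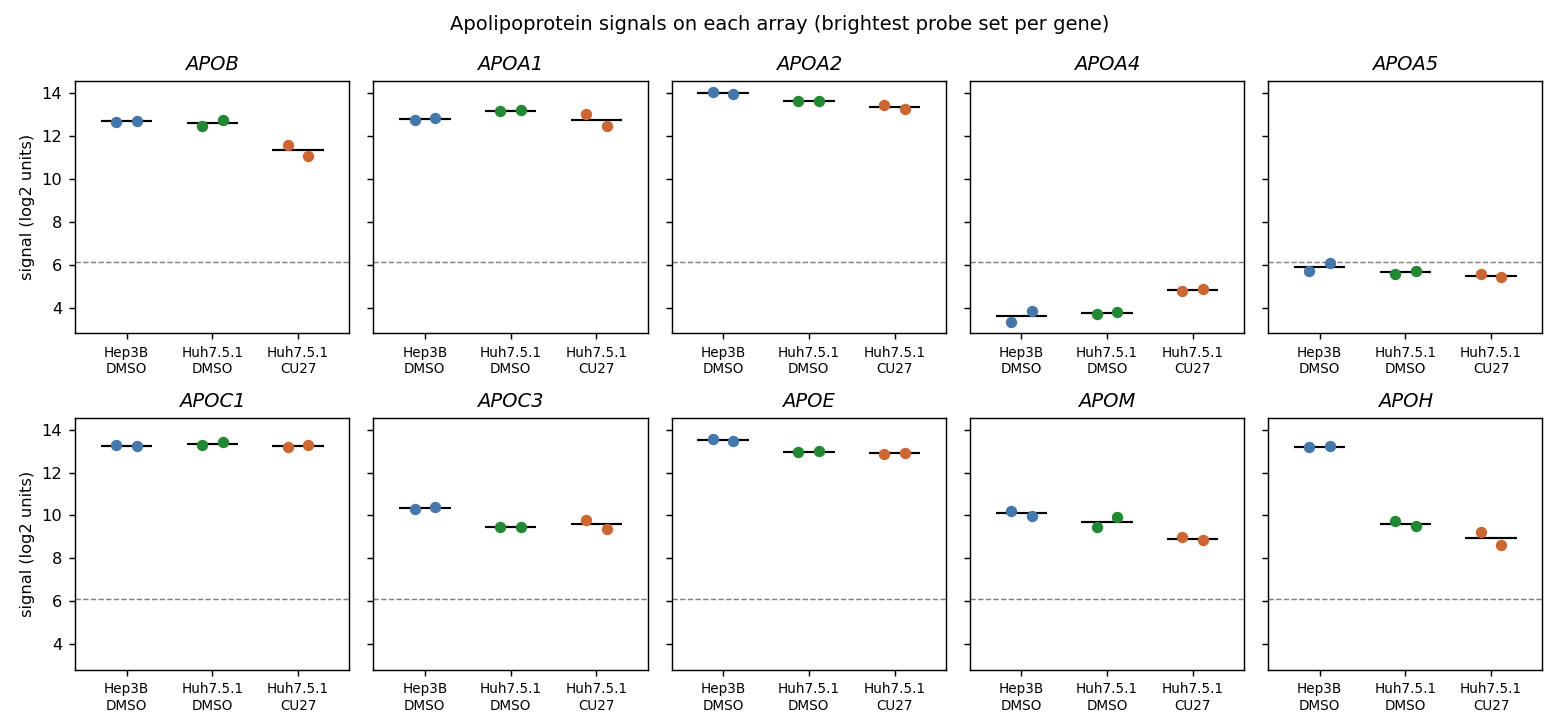
Signal in log2 units (y axis) of the brightest probe set of each apolipoprotein on the 6 arrays, in 3 groups of 2 (x axis); points are arrays, bars are group means and the dashed line is the floor of 6.11. APOB drops from 12.47 and 12.72 with DMSO to 11.56 and 11.07 with CU27, and APOH is at 13.18 and 13.23 in Hep3B but 9.51 to 9.72 in Huh7.5.1 with DMSO.

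APOB had the largest fall among the apolipoproteins tested. Its signal was 12.47 and 12.72 on the Huh7.5.1 DMSO arrays and 11.56 and 11.07 on the CU27 arrays. Hep3B with DMSO gave 12.64 and 12.71. The CU27 arrays lay below all 4 DMSO arrays, those of the other line included. The difference between CU27 and DMSO in Huh7.5.1 was -1.28 ± 0.15 (SE, n = 2 against 2), 2.42-fold lower, with a limma adjusted p of 0.00126. This was the 156th largest fall of the 11383 genes tested. The 3 APOB probe sets at the floor all fell, with differences of -1.53 to -1.28, each fitted among 25602 probe sets. The remaining APOB probe set was below the floor, with a raw difference of -0.74. APOB passed the test in all 17 alternative settings, with differences of -1.53 to -1.03. In bulk RNA, fewer cells carrying a transcript and less of it per cell cannot be told apart, here and for every gene below.

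APOA1, the main protein of high-density lipoprotein, did not pass the test with CU27. APOA2, its partner on those particles, did, although its difference was smaller. APOA1 gave 13.14 and 13.19 with DMSO and 13.03 and 12.45 with CU27. The CU27 arrays were both lower but stood 0.58 apart, far more than the DMSO pair. The difference was -0.43 ± 0.15 (limma adjusted p = 0.0723), with a confidence interval of -0.78 to -0.08 at the 0.95 level before adjustment. It was -0.72 without CU27 replicate 1 (adjusted p = 0.00232) and -0.14 without CU27 replicate 2 (adjusted p = 0.286). All 6 APOA1 probe sets had lower means with CU27, by 0.34 to 0.53, and 1 of them passed. APOA1 passed in 4 of 16 alternative settings, among them the mean of all probe sets (limma adjusted p = 0.0481) and quantile normalization (0.0478).

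APOA2 moved little but evenly. Its arrays read 13.64 and 13.62 with DMSO and 13.42 and 13.25 with CU27, without overlap. The fall was 1.23-fold, a difference of -0.30 ± 0.07 (limma adjusted p = 0.0159), and all 3 APOA2 probe sets fell, by 0.27 to 0.38. It did not pass in 4 of 17 settings, among them leaving out Huh7.5.1 DMSO replicate 1 (adjusted p = 0.0808), the other DMSO array (0.0858) or CU27 replicate 2 (0.0787).

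APOC1, APOE and APOC3 did not pass the test with CU27. APOC1, an inhibitor of lipoprotein uptake and of cholesteryl ester transfer, gave 13.26 and 13.41 with DMSO and 13.20 and 13.26 with CU27, a difference of -0.11 ± 0.07 (limma adjusted p = 0.302). APOE, the ligand through which remnants are cleared, gave 12.93 and 12.99 with DMSO and 12.88 and 12.92 with CU27, a difference of -0.06 ± 0.07 (adjusted p = 0.551). Both shifts were small beside that of APOB, and the intervals of the difference ran from -0.27 to 0.05 for APOC1 and from -0.21 to 0.09 for APOE. APOC3, an inhibitor of triglyceride hydrolysis and remnant uptake, gave 9.48 on both DMSO arrays and 9.81 and 9.37 with CU27. One CU27 array was above the DMSO arrays and the other below them, and the difference was 0.11 ± 0.16 (adjusted p = 0.684, interval -0.25 to 0.47). It was -0.11 without CU27 replicate 1. The 4 APOC1 probe sets at the floor ranged from -0.42 to 0.05 and 0 passed. The lowest reached the floor only in Hep3B. Its Huh7.5.1 means, 5.58 with DMSO and 5.16 with CU27, were both below it, so its difference is not read. APOC1 has a near-identical pseudogene beside it, so its signal may include that copy's transcript.

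APOM and APOH, which are bound to lipoproteins in part and belong to the lipocalin and complement control protein families respectively, were the other genes that fell. APOM gave 9.45 and 9.93 with DMSO and 9.0 and 8.85 with CU27. The DMSO arrays stood 0.48 apart, yet both lay above the CU27 arrays, and the difference was -0.76 ± 0.18 (limma adjusted p = 0.0156), 1.70-fold lower. APOH gave 9.72 and 9.51 with DMSO and 9.25 and 8.64 with CU27, again without overlap, a difference of -0.67 ± 0.19 (adjusted p = 0.0305), 1.59-fold lower. APOM lost its call without DMSO replicate 2 (-0.53, adjusted p = 0.126) and without CU27 replicate 2 (-0.69, adjusted p = 0.079), and kept it in the other 15 of 17 settings. APOH lost its call in 7 of 17 settings. Leaving out any 1 array other than CU27 replicate 1 did so, with adjusted p from 0.0684 for Hep3B replicate 2 and 0.0689 for Hep3B replicate 3 to 0.0809 and 0.147 for DMSO replicates 2 and 1, and 0.106 for CU27 replicate 2, where the difference was -0.37.

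Promoter sequences from RefSeq (GRCh38.p14) matched 7 of the 10 genes. The 250 bases before the annotated start are printed for APOM, APOH and APOA2, the genes that fell and have an entry, so that they can be read side by side; capitals mark matches to the motifs searched. The strand is plus for APOM (chr6:31655644-31655893) and minus for APOH (chr17:66229416-66229665) and APOA2 (chr1:161223629-161223878), and each is written 5′ to 3′ toward the gene.
APOM: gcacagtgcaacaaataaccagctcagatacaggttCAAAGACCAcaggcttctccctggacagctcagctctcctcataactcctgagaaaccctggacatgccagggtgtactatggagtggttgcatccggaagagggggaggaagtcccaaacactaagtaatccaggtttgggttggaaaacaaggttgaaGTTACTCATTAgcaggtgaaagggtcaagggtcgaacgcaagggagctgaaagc
APOH: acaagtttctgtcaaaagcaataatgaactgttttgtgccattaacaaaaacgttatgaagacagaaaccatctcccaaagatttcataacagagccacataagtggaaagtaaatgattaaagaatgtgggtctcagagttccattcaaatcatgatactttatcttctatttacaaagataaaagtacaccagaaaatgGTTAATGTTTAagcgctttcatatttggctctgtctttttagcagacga
APOA2: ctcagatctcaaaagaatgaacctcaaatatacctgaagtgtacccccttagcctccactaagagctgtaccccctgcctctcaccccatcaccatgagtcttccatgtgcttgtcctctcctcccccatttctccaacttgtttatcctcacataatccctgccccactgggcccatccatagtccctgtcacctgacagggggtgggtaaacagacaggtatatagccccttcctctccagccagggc

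Motifs were searched on both strands of these windows and of all 35116 promoter windows of the same length, and the letters were chosen after the sequences had been read. A site of the HNF1 family, homeodomain factors of liver and kidney, was searched as a degenerate motif with A or C at the fifth base and A or T at the eighth, and was found in 0.342% of all windows. APOH held GTTAATGTTTA at position -49 from the start, and APOM held GTTACTCATTA at position -54. A direct repeat read by nuclear receptors, CAAAGNCCA, was found in 1.34% of all windows and in APOM as CAAAGACCA at position -214. The receptor half-site AGGTCA (12.1% of windows) was found in both APOA5 promoters. The C/EBP site TTGCNNAA (9.05%), the TATA box TATAAA (10.7%) and the sterol element TCACNCCAC (0.883%) were in 0 of the 10 windows of these genes. The windows of APOA2, APOA4, APOC1 and APOE held 0 of the 6 motifs. None of the 6 motifs contains another as written. A match shows only that these letters occur there, and binding was not measured.

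APOA4, an intestinal apolipoprotein of chylomicrons, gave 3.68 and 3.77 with DMSO and 4.76 and 4.87 with CU27, and 3.35 and 3.84 in Hep3B. Both CU27 arrays were higher than all others, by a raw difference of 1.09, but every value lay below the floor of 6.11. It passed where the floor was lowered to the 25th percentile of signals (limma adjusted p = 0.00368) or removed (0.00301). APOA5, a liver protein that promotes triglyceride clearance, ranged from 5.41 to 6.06 over the 6 arrays, also below the floor, with a raw CU27 difference of -0.15.

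Counted over probe sets rather than genes, 20 of the 25 reached the floor, and 9 of these fell with CU27 while 0 rose. Of all 25602 probe sets fitted, 11.3% fell and 10.5% rose. The 9 were 3 of APOB, 3 of APOA2 and 1 each of APOA1, APOM and APOH. Probe sets of a gene share its transcript and are not independent.

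**Figure D2:**
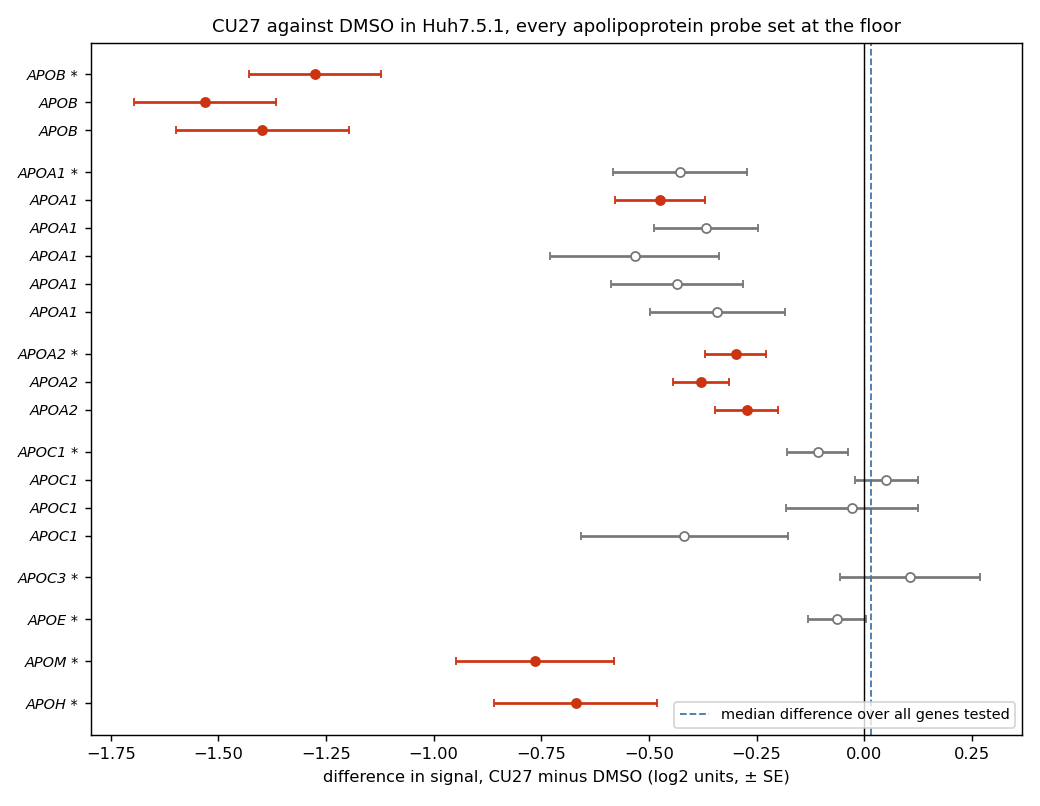
Difference in signal between CU27 and DMSO in Huh7.5.1 (x axis, log2 units, bars ± SE) for each of the 20 apolipoprotein probe sets at the floor (y axis); an asterisk marks the brightest of a gene, red points passed the adjusted test and open points did not, and the dashed line is the median of all genes tested, 0.02. The 3 APOB probe sets lie between -1.53 and -1.28, and the 4 of APOC1 between -0.42 and 0.05. The lowest of APOC1 had both Huh7.5.1 group means below the floor.

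Hepatocyte markers moved in the same comparison. Of 10 such markers, all tested, 5 fell and 0 rose with CU27, against 12.1% and 12.6% of all genes. Their median difference was -0.66. AHSG, which encodes fetuin-A, fell by 1.40 ± 0.12, TTR, a thyroid hormone and retinol carrier, by 0.94 ± 0.15, SERPINA1, the protease inhibitor alpha-1 antitrypsin, by 0.66 ± 0.08 and RBP4, the retinol carrier, by 0.56 ± 0.09 (limma adjusted p from 0.000394 to 0.00349). ALB, albumin, gave -0.10 ± 0.06 (adjusted p = 0.275). The summed signal of the 10 markers, on the linear scale, was 94792 and 99312 with DMSO and 80393 and 64967 with CU27. Their mean was 12.45 and 12.54 with DMSO and 12.02 and 11.62 with CU27. Of the apolipoproteins tested, APOB, APOA1, APOA2, APOC3, APOM and APOH were also lower on CU27 replicate 2 than on replicate 1. APOC1 (13.20 on replicate 1 and 13.26 on replicate 2) and APOE (12.88 and 12.92) were slightly higher on it. The part of the marker shift in the apolipoprotein differences was not tested.

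Of markers of other cell types, CD68, a lysosomal glycoprotein of macrophages that other cells also make, rose by 2.25 ± 0.20 (limma adjusted p = 0.000394). CD14, a lipopolysaccharide receptor, had both Huh7.5.1 group means below the floor, so no difference is given for it. SI, the intestinal disaccharidase sucrase-isomaltase, fell by 1.54 ± 0.48 (adjusted p = 0.0444), a call lost in 11 of 17 settings, among them those without any 1 array other than CU27 replicate 1. The difference was -0.62 without CU27 replicate 2 and -2.45 without CU27 replicate 1. The 2 fibroblast markers tested did not pass. The summed leukocyte and macrophage signal was 3960 to 4066 with DMSO and 2391 to 3461 with CU27, and the enterocyte sum was 2436 to 2445 and 2229 to 2570. LYZ was the largest term of the leukocyte and macrophage sum, at 11.86 and 11.83 with DMSO and 11.44 and 10.57 with CU27. It did not pass (limma adjusted p = 0.0657). The log2 mean of that list did not fall, at 6.21 and 6.17 with DMSO and 6.27 and 6.28 with CU27. The part of these genes in the apolipoprotein differences was not tested.

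Of 17 genes of lipoprotein assembly and secretion listed, 15 were tested, 3 fell and 1 rose with CU27, against 12.1% and 12.6% of all genes, and the median was -0.03. MTTP, the transfer protein that lipidates APOB, gave 11.44 and 11.62 with DMSO and 10.96 and 10.13 with CU27. Its CU27 arrays were both lower but 0.83 apart, and the difference was -0.98 ± 0.24 (limma adjusted p = 0.0176). DGAT2, which makes triglyceride, fell by 0.90 ± 0.17 (adjusted p = 0.00657) and A1CF, a partner of the APOB messenger editing enzyme, by 0.93 ± 0.19 (adjusted p = 0.00946). MIA3, which loads large cargo at endoplasmic reticulum exit sites, rose by 0.65 ± 0.13 (adjusted p = 0.00806), with 1 of its 3 probe sets of opposite sign. MTTP no longer passed when DMSO replicate 1 was left out (adjusted p = 0.0525), nor without the other DMSO array (0.113) or without CU27 replicate 2 (0.0573, difference -0.57). The calls of DGAT2 and MIA3 were lost without DMSO replicate 2 and that of A1CF without DMSO replicate 1, and those of A1CF and MIA3 also with the mean of all probe sets. Without CU27 replicate 2 the A1CF difference was -0.62.

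Among 17 other apolipoproteins and proteins carried on lipoproteins, 11 were tested, 3 fell and 1 rose, against 12.1% and 12.6% of all genes. Their median difference was -0.04. PON1, the paraoxonase of high-density lipoprotein, was 7.26 and 7.76 with DMSO and 6.30 and 5.90 with CU27, at least 2.64-fold lower because the CU27 mean lay below the floor (limma adjusted p = 0.00314). PON3, a related lactonase, fell by 1.02 ± 0.20 (adjusted p = 0.00847). SAA1, an acute-phase apolipoprotein, was at least 1.48-fold lower (adjusted p = 0.0177). CLU, the chaperone clusterin or apolipoprotein J, rose by 0.44 ± 0.08 (adjusted p = 0.00689). APOC2, the activator of lipoprotein lipase, gave -0.33 ± 0.12 (adjusted p = 0.0664). The PON3 call was lost without DMSO replicate 1, that of SAA1 without either DMSO array or without CU27 replicate 2, and that of CLU with the mean of all probe sets. Without CU27 replicate 2 the SAA1 difference was -0.79, against -1.31 with all arrays.

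Most receptors and plasma remodelling genes did not pass the test with CU27. Of all genes tested, 24.7% passed, 12.1% lower and 12.6% higher. Of 16 receptors and their regulators listed, 9 were tested and 1 fell: SDC1, the heparan sulfate proteoglycan syndecan-1, by 0.81 ± 0.12 (limma adjusted p = 0.00278). The median of this list was -0.03. Of 16 genes of remodelling and cholesterol efflux, 6 were tested and 1 rose: LIPG, endothelial lipase, which was below the floor with DMSO and at least 1.17-fold higher with CU27 (adjusted p = 0.0082). ABCA1, which loads cholesterol onto APOA1, gave -0.34 ± 0.14 (adjusted p = 0.104).

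Regulators of apolipoprotein transcription went both ways. Of 26 listed, 20 were tested, 3 fell and 7 rose, against 12.1% and 12.6% of all genes, with a median of 0.02. CEBPA, a C/EBP factor of mature hepatocytes, gave 11.49 and 11.54 with DMSO and 10.43 and 10.19 with CU27, a difference of -1.21 ± 0.11 (limma adjusted p = 0.000394). SREBF1, which drives fatty acid synthesis genes, fell by 0.67 ± 0.15 (adjusted p = 0.0136) and FOXA1, a pioneer factor, by 0.63 ± 0.13 (adjusted p = 0.00998). RORA, an orphan nuclear receptor, was below the floor with DMSO and at least 2.75-fold higher with CU27 (adjusted p = 0.000794). SREBF2, which drives cholesterol synthesis genes, rose by 0.81 ± 0.15 (adjusted p = 0.00616) and CREB3L3, a liver factor for triglyceride metabolism genes, by 0.77 ± 0.16 (adjusted p = 0.00945). PPARA, a fatty acid receptor, rose by 0.58 ± 0.16 (adjusted p = 0.032), a call lost in 8 of 15 settings, which include leaving out each of the 6 arrays. NR1H3, an oxysterol receptor, gave -0.04 ± 0.15 (adjusted p = 0.887). The calls of FOXA1, SREBF1 and CREB3L3 were lost without DMSO replicate 2, and that of SREBF1 also with the mean of all probe sets.

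**Figure D3:**
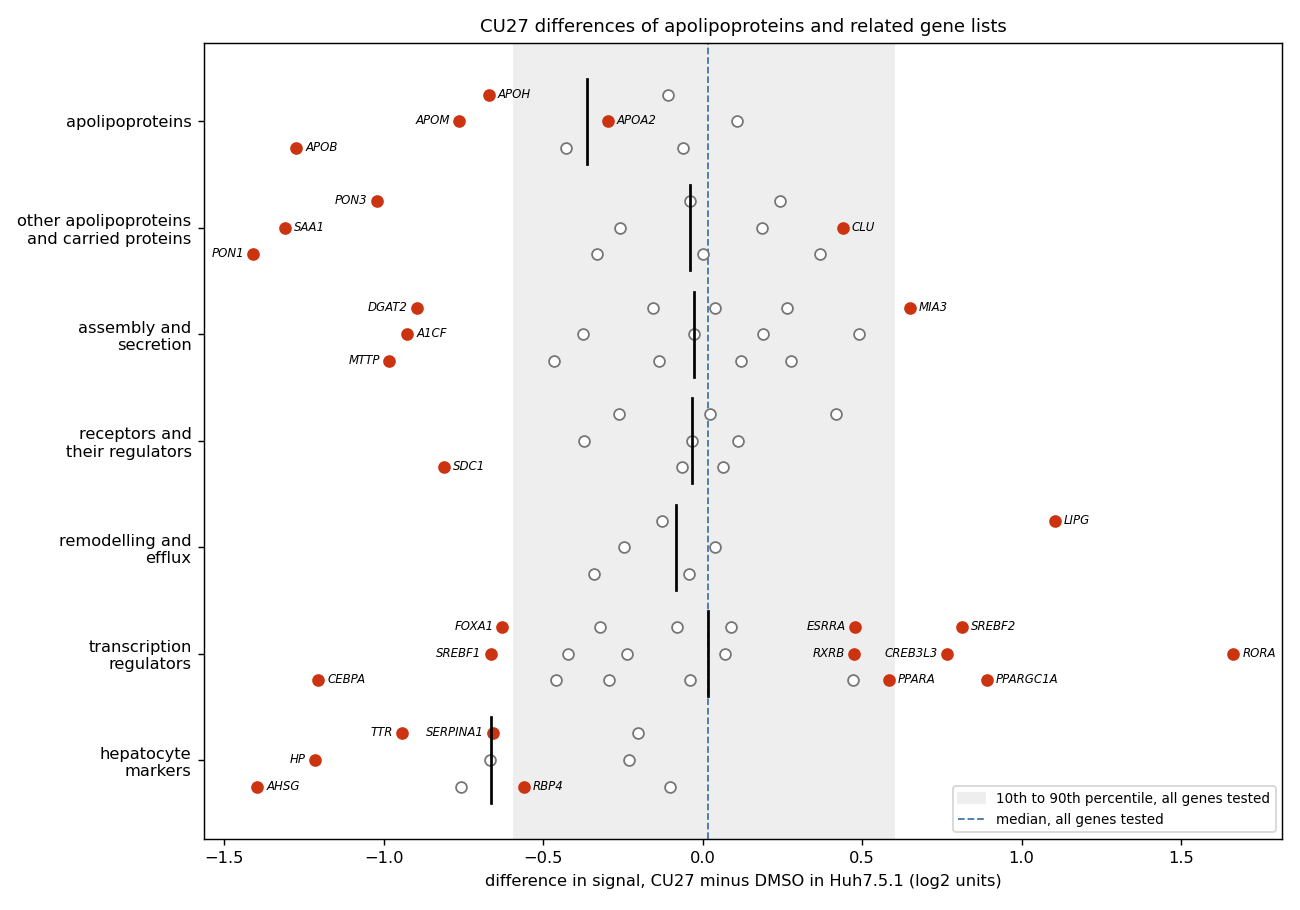
Difference in signal between CU27 and DMSO in Huh7.5.1 (x axis, log2 units) of every tested gene in 7 gene lists (y axis); red points passed the adjusted test, open points did not, black bars are list medians and the grey band spans the 10th to 90th percentile of all genes tested. The apolipoprotein median is -0.36 and the hepatocyte marker median -0.66, while the other lists lie between -0.08 and 0.02.

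The 2 lines were also compared with DMSO alone, a comparison that shares the Huh7.5.1 DMSO arrays with the one above. The median difference, Huh7.5.1 minus Hep3B, was 0.22 over all genes tested, so values are also given relative to that shift. Of the 8 apolipoproteins tested, 4 were lower in Huh7.5.1 and 1 higher. Of all genes tested, 22.9% were lower and 41% higher, 64% in either direction. The arrays of the lines were separated with Huh7.5.1 lower for 5 of the 8 and higher for 1, against 31.9% and 52.9% of all genes. With each array centred on its own median, 8 of 9 apolipoproteins tested were lower and 0 higher, against 40.8% lower and 23.2% higher of all genes. The 9 include APOA5, which was below the floor as deposited and is counted among the 8. It reached the floor after centring only in Hep3B, the group where it was higher, so its call is not read as a result. The ACTB 3′ to 5′ difference was also larger in Hep3B, as given above, and its part was not tested.

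APOH set the lines apart most among these genes. Hep3B gave 13.18 and 13.23, whereas Huh7.5.1 gave 9.72 and 9.51. The groups were more than 3 log2 units apart, with arrays of a group within 0.21 of each other. The difference was -3.59 ± 0.19 (n = 2 against 2; limma adjusted p = 8.29e-07), 12-fold lower in Huh7.5.1, or -3.81 relative to the shift, and it passed in all 16 settings tried. It was the 58th lowest of 11383 differences.

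APOC3, APOE and APOA2 were also lower in Huh7.5.1. APOC3 gave 10.32 and 10.39 in Hep3B and 9.48 on both Huh7.5.1 arrays, a difference of -0.87 ± 0.16 (limma adjusted p = 0.00127), 1.83-fold lower. APOE gave 13.55 and 13.45 against 12.93 and 12.99, a difference of -0.54 ± 0.07 (adjusted p = 0.000132). APOA2 gave 14.02 and 13.93 against 13.64 and 13.62, a difference of -0.34 ± 0.07 (adjusted p = 0.00251). In all 3 genes the arrays of the lines did not overlap. Relative to the shift the differences were -1.10, -0.76 and -0.56. APOC3 and APOE passed in all 15 settings tried, and APOA2 in 15 of 16. APOC3 and APOE each rest on 1 probe set that may cross-hybridise or match several transcripts. The setting without such probe sets could not test them.

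APOA1 gave 12.73 and 12.82 in Hep3B and 13.14 and 13.19 in Huh7.5.1. It was higher in Huh7.5.1 by 0.39 ± 0.15 (limma adjusted p = 0.0496), or 0.17 relative to the shift, and the sign turned when arrays were centred (-0.03, adjusted p = 0.891). The call was lost in 10 of 15 settings, including that one and those without either Hep3B array or either Huh7.5.1 DMSO array (adjusted p from 0.112 to 0.205). Its 6 probe sets ranged from -0.25 to 0.46, so they did not give 1 direction.

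APOM, APOB and APOC1 did not pass between lines on the deposited scale. APOM gave 10.21 and 9.98 in Hep3B and 9.45 and 9.93 in Huh7.5.1, a difference of -0.41 ± 0.18 (limma adjusted p = 0.0739). It passed when arrays were centred (-0.82, adjusted p = 0.00281) and without Huh7.5.1 DMSO replicate 2 (-0.65, adjusted p = 0.0213), while it was -0.17 without Huh7.5.1 DMSO replicate 1 (adjusted p = 0.48) and -0.29 without Hep3B replicate 2 (adjusted p = 0.322). APOB differed by -0.08 ± 0.15 (adjusted p = 0.669) and its 3 probe sets at the floor ranged from -0.08 to 0.35. The brightest APOC1 probe set differed by 0.09 ± 0.07 (adjusted p = 0.291), but 3 of its 4 probe sets were lower in Huh7.5.1, the lowest by 1.93 with its Huh7.5.1 mean below the floor. With centred arrays APOB (-0.50, adjusted p = 0.0162) and APOC1 (-0.33, adjusted p = 0.00431) were lower in Huh7.5.1. Over all 20 probe sets, 9 were lower and 1 higher, against 19.4% lower and 44.7% higher of the 25602 fitted.

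**Figure D4:**
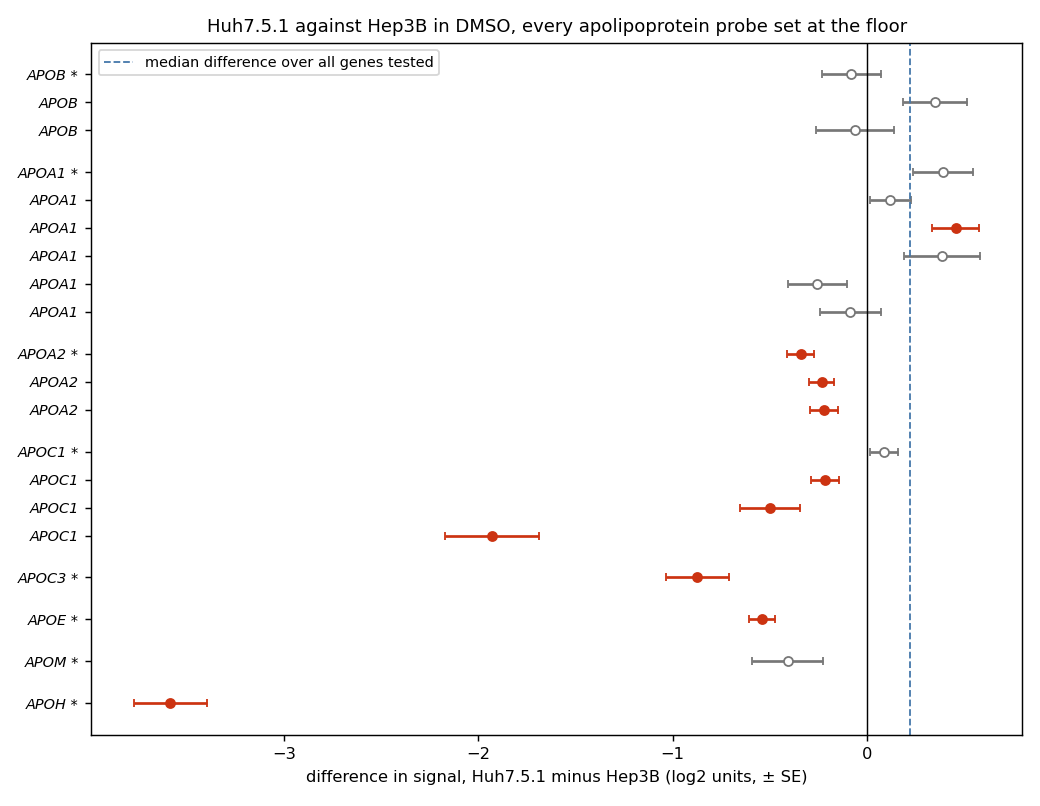
Difference in signal between Huh7.5.1 and Hep3B in DMSO (x axis, log2 units, bars ± SE) for each of the 20 apolipoprotein probe sets at the floor (y axis), marked as in the plot of CU27 differences; the dashed line is the median of all genes tested, 0.22. APOH lies at -3.59, and the 4 APOC1 probe sets spread from -1.93 to 0.09.

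The counts of the related lists also moved when arrays were centred, and are to be read against 22.9% lower and 41% higher of all genes, or 40.8% lower and 23.2% higher with centred arrays. Of 10 hepatocyte markers, 7 were higher in Huh7.5.1 and 2 lower, and 5 and 4 with centred arrays. AFP, alpha-fetoprotein, was higher by 3.23 ± 0.14 and AHSG lower by 2.07 ± 0.12 (limma adjusted p = 3.26e-07 and 1.73e-06). Of the 15 assembly genes tested, 5 were lower and 6 higher, and 5 and 3 with centred arrays. MTTP was higher by 1.59 ± 0.24 (adjusted p = 0.000387) and DGAT2 by 1.72 ± 0.17 (adjusted p = 3.14e-05), while CIDEB, a lipid droplet protein that acts in lipoprotein lipidation, was lower by 1.80 ± 0.16 (adjusted p = 1.95e-05). P4HB, the small subunit of the transfer protein complex, and SURF4, a cargo receptor for APOB, were each lower by 0.37 in the brightest probe set, while 4 of 6 P4HB and 5 of 6 SURF4 probe sets had the opposite sign. These calls were lost without Hep3B replicate 3 or Huh7.5.1 DMSO replicate 1 for P4HB and without Huh7.5.1 DMSO replicate 2 for SURF4.

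Of 9 receptors tested, 6 were higher in Huh7.5.1 and 1 lower, and 5 and 1 with centred arrays. VLDLR, which binds APOE, was higher by 2.00 ± 0.16 (limma adjusted p = 9.78e-06) and LRP1, a remnant receptor, by 1.05 ± 0.16 (adjusted p = 0.000396), while LSR, the lipolysis-stimulated receptor, was lower by 0.90 ± 0.12 (adjusted p = 0.000228). ANGPTL8, a secreted regulator of lipoprotein lipase, was at least 23.9-fold lower (adjusted p = 6.05e-08), its Huh7.5.1 mean being below the floor. PLTP, the phospholipid transfer protein, was higher by 1.74 ± 0.16 (adjusted p = 1.95e-05) and ABCA1 by 0.98 ± 0.14 (adjusted p = 0.000285).

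Of 20 transcription regulators tested, 10 were lower in Huh7.5.1 and 6 higher, and 13 and 3 with centred arrays. CEBPA was lower by 1.17 ± 0.11 (limma adjusted p = 1.97e-05) and FOXA1 by 1.16 ± 0.13 (adjusted p = 7.3e-05). CEBPB, a C/EBP factor of the acute phase, was higher by 1.67 ± 0.12 (adjusted p = 4.78e-06) and PROX1, a homeobox factor of liver development, by 1.5 ± 0.17 (adjusted p = 7.81e-05). Of 11 other apolipoproteins and carried proteins tested, 2 were lower and 6 higher, but 4 were lower and 3 higher with centred arrays. PON1 and SAA1 were below the floor in Hep3B and at least 2.64-fold and 1.48-fold higher in Huh7.5.1 (adjusted p = 1.04e-06 and 9.99e-06). Of 3 enterocyte markers tested, 2 were higher and 1 lower, and of 4 leukocyte and macrophage markers 1 was higher and 1 lower. With centred arrays these were 2 and 1, and 1 and 2. The intestinal factor CDX2 was at least 12.1-fold higher and LYZ, lysozyme, 17.4-fold higher in Huh7.5.1 (adjusted p = 2.25e-07 and 4.81e-06). VIL1, an enterocyte marker, was lower by 0.86 ± 0.17 (adjusted p = 0.00206), with 1 of its 2 probe sets of opposite sign. CD14 was at least 1.41-fold lower (adjusted p = 2.38e-05), its Huh7.5.1 mean being below the floor. The part of these genes in the apolipoprotein differences was not tested.

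Among themselves, the apolipoproteins did not follow 1 pattern over the 6 arrays. Likeness was measured as the Euclidean distance between signals centred on each gene's own mean, in log2 units. The closest pair was APOA2 and APOE, at 0.298, then APOC3 and APOE at 0.491. The nearest other genes were FZD5 (0.207) and SKA2 (0.306) for APOB, ANXA4 (0.151) and ALDH1A1 (0.174) for APOA1, and CBFB (0.082) and CBX3 (0.108) for APOA2. They were TIMM8A (0.057) and SEPTIN6 (0.068) for APOC1, KLHL5 (0.134) and GUSB (0.149) for APOC3, and FAAH (0.078) and ATP2A3 (0.103) for APOE. For APOM they were TST (0.220) and ZHX3 (0.241), and for APOH UGT2B7 (0.461) and NRXN3 (0.464).

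Some of these genes are neighbours. By RefSeq gene order on chromosome 11, APOA5, APOA4, APOC3 and APOA1 follow each other with no other protein-coding gene between them. Within this cluster the CU27 differences were -0.15 for APOA5 and 1.09 for APOA4, both untested below the floor, 0.11 for APOC3 and -0.43 for APOA1. On chromosome 19, APOE, APOC1, APOC4 and APOC2 adjoin in that order, and APOE, APOC1 and APOC2 gave -0.06, -0.11 and -0.33 with CU27. Of the tested genes in these clusters 0 passed with CU27, against 24.7% of all genes tested. So few genes cannot set the clusters apart from other genes. APOA1 and APOC2 were near the threshold (limma adjusted p = 0.0723 and 0.0664). The APOA1 difference was also larger than that of APOA2 (-0.30), which passed. The 4 apolipoproteins that passed, APOB, APOM, APOH and APOA2, lie on chromosomes 2, 6, 17 and 1.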

How the data were processed

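Total RNA of 6 cultures was labelled by 3′ in vitro transcription and hybridised to 1 Affymetrix array each, per the labels' protocols. The deposited value table was used as log2 signal per probe set, and the log2 scale was read from the range of the deposited values. MAS5 is named without a version in the submitters' processing notes, and how arrays were scaled to each other is unknown here. Of 49395 probe sets, 102 were controls, 44988 carried 1 gene symbol, 1832 several and 2473 none. Only probe sets with 1 symbol were named, and 44961 matched by Entrez identifier.

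Both comparisons used limma 3.58.1 in R 4.3.3 (lmFit, eBayes with an intensity trend) on the 3 groups together, with 3 residual degrees of freedom, and Benjamini-Hochberg adjustment over all 11383 genes tested, at a threshold of 0.05. An exact permutation of 2 against 2 arrays cannot go below p = 0.333. Arrays give no read depth, and their number sets the precision. Where a group mean was below the floor, a fold is at least the ratio to the floor. The model was also tested on simulated data. Alternatives changed the floor, the probe set per gene, the scaling, the variance model, a replicate block and the arrays used.

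The members and lists were chosen with earlier results of these data known. Named genes were all 10 apolipoproteins, from each other list up to 4 per direction and comparison past the test with the smallest p, of which some are left unnamed, and MTTP, ABCA1, SREBF1, SREBF2, NR1H3 and PPARA whatever their result. For likeness, the 2 nearest tested genes were named. Genes on a list that were not tested are not analysed here. Replicate numbers did not count as pairs, since Huh7.5.1 offered only 2 pairs and the labels tie no number to a shared culture or day.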

Additional observations from a re-analysis of the deposited data

How the results depend on the processing

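The count of apolipoproteins past the test with CU27, 4, ran from 1 to 5 when 1 array was left out. It was 2 without Huh7.5.1 DMSO replicate 1, 5 without CU27 replicate 1 and 1 without either of the arrays numbered 2 in Huh7.5.1, and a lone array was then assumed to vary like the other groups. It was 2 with no intensity trend. With the replicate number as a block it was 5, adding APOA1 (limma adjusted p = 0.0431), and deviations of same-numbered arrays correlated at 0.18 over 11383 genes. Over all genes, 2809 passed with CU27, 1639 when DMSO replicate 1 was left out, 900 when DMSO replicate 2 was and 1517 when CU27 replicate 2 was. Between the lines the count, 5, ran from 4 to 5 with 1 array left out, and was 3 with no intensity trend, 8 with centred arrays and 2 without the probe sets that may cross-hybridise or match several transcripts, which left 5 apolipoproteins to test. The 8 with centred arrays include APOA5, which reached the floor there only through Hep3B. No paired analysis was possible because the lines share only 1 replicate number.

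Some differences changed sign. With CU27, the lowest and highest values with 1 array left out were -0.11 and 0.33 for APOC3 and -0.10 and 0.027 for NR1H3. Between lines, APOB ran from -0.20 to 0.048 with 1 array left out, and was 0.018 with the mean of all probe sets and 0.35 without cross-hybridising ones. APOC1 was -0.36 with the mean, -0.33 with centred arrays and -0.043 after quantile normalization, and APOA1 was -0.026 with centred arrays. With the mean of all probe sets CLU was 0.083, P4HB 0.94 and SURF4 0.99, and without cross-hybridising ones P4HB was 1.46 and SURF4 1.12. The cause of these changes was not tested. Results rest on 2 arrays a group, an inferred log2 scale and an unknown scaling between arrays.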
